A study of Mus musculus with 6 samples.

Results

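The cathepsins expressed in cultured mouse effector CD8+ T cells (Teff) were examined as a family of 10 genes, Ctsa, Ctsb, Ctsc, Ctsd, Ctsh, Ctsl, Ctso, Ctss, Ctsw and Ctsz. They were taken by gene symbol from the 34745 genes listed for every library, and all 10 symbols were present. The rule takes symbols alone and uses no measured value, although the family was proposed with earlier results of these data known. The RNA-seq data comprised 3 WT and 3 Scd-1-/- libraries, each with a replicate number from 1 to 3. The WT cells came from C57BL/6J mice and the Scd-1-/- cells from B6.129-Scd1tm1Ntam/J mice, which lack the stearoyl-CoA desaturase gene Scd1 in every tissue from the germline. The WT mice were purchased and the Scd-1-/- mice came as a gift of another laboratory. Males aged 6 to 8 weeks were used, and nothing in the sources used here says that the WT mice were littermates. Splenic CD8+ cells of both genotypes, isolated with a magnetic kit, received anti-CD3 (5 μg/mL), anti-CD28 (0.5 μg/mL) and IL-2 (100 U/mL) for 3 days. They were then washed, kept in IL-2 for 3 days and harvested on day 6. Nothing in the labels says that the 3 libraries of a genotype came from separate mice, so p-values measure only the spread between these libraries.

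Cathepsins are the main proteases of the lysosome and of lysosome-related organelles, which in cytotoxic T cells include the granules that store perforin and granzymes. They are made as inactive proenzymes, carried to the acidic compartment largely by mannose 6-phosphate receptors, and activated there by removal of a propeptide. Most are cysteine proteases of the papain family (cathepsins B, C, H, L, O, S, W and Z). Cathepsin D is an aspartic protease and cathepsin A a serine carboxypeptidase. Cystatins and some serpins hold them in check outside or on the way to the lysosome, and TFEB and TFE3 are known as transcriptional regulators of lysosomal genes.

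Depth was similar in the 6 libraries, between 14034479 and 15866216 counts, and a count of 0 allowed up to 3 counts, or 0.189 to 0.214 CPM (counts scaled to the library total), for counting error only. The targeted gene Scd1 had 4272, 3074 and 3761 counts in WT and 30, 36 and 20 counts in Scd-1-/- libraries, which matched the labels. The main axis of variation (42.9% of the variance) set the libraries numbered 1 of both genotypes apart from the other 4, and the second axis (36.3%) separated WT from Scd-1-/-. All 7 CD8 T cell markers were expressed, with a summed level of 1852 to 2237 FPKM in WT against 1795 to 2105 FPKM in Scd-1-/- (FPKM corrects a count for the length of its gene and the total of its library). Among markers of other cells, Ms4a1 and Pax5 of B cells and Adgre1, C1qa, C1qc, Cybb and Spi1 of myeloid cells were at 0 in every library. Some markers of other cells were higher in Scd-1-/- libraries and some were lower. The natural killer marker Klrb1c had 0.501 to 0.938 FPKM in WT against 1.66 to 9.39 FPKM in Scd-1-/- libraries, whereas Ncr1 of the same list had 0, 4 and 5 counts in WT and 0, 0 and 2 counts in Scd-1-/-, and Klra8 and Klra4 had at most 2 counts in any library. The myeloid marker Cd14 had 0.179 to 0.461 against 1.14 to 1.89 FPKM, whereas Mpeg1 of the same list had 4, 2 and 3 counts in WT and 0, 0 and 1 count in Scd-1-/-. Cd4 had 8, 24 and 12 counts in WT and 5, 2 and 1 count in Scd-1-/-. Cd8a was lower without overlap, at 43.2 to 47.6 FPKM in WT against 27.9 to 36.6 FPKM in Scd-1-/-. The myeloid Itgam (0 to 16 counts in WT, 13 to 83 in Scd-1-/-) and the mast cell Cpa3 (4 to 25 and 22 to 83 counts) had higher means in Scd-1-/- but overlapped, and Ms4a2, another mast cell marker, was at 0 in every library. By replicate 1 to 3, Itgam had 16, 0 and 5 counts in WT and 83, 13 and 16 in Scd-1-/-. The edgeR adjusted p of Itgam was 0.524 on genotype alone and 0.0464 with the replicate number added to the fit.

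Ctsd and Ctss were the 2 cathepsins whose levels did not overlap between genotypes, and stretches before their start sites are shown because they hold motifs known from lysosomal and interferon-responsive genes. The sequences are RefSeq windows from 250 bases before to 50 bases after each start site, on GRCm38.p6, read along the strand of the gene, and 7 of the 10 members had a window (all but Ctsb, Ctsh and Ctsw). The capitals mark CACGTG in the Ctsd, Ctsa and Ctsl stretches, the E-box that TFEB and TFE3 are known to bind, and the core of the interferon-stimulated response element in the Ctss stretch, which is GAAA, any 2 bases and GAAA again.
Ctsd, chr7:142388048-142388077, minus strand: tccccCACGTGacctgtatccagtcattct
Ctsd, chr7:142387908-142387937, minus strand: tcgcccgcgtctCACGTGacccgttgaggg
Ctsa, chr2:164833758-164833787, plus strand: tgtCACGTGatgcagatgctCACGTGacca
Ctsl, chr13:64370739-64370768, minus strand: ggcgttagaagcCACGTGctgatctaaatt
Ctss, chr3:95526666-95526785, plus strand: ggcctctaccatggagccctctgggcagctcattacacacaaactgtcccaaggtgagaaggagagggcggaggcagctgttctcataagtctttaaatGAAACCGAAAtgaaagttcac

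In Ctsd the E-boxes begin 245 and 98 bases before the RefSeq start site. The second of these stretches lies within the annotated span of Ctsd in GENCODE M21, and the first lies upstream of the gene. In Ctsa one E-box begins 12 bases before the start site and the other at base 6 of the transcript. The Ctsl E-box begins 236 bases before its start site, and the Ctss match begins 21 bases before. The Ctsa and Ctsl stretches lie within the annotated spans of these genes in GENCODE M21. Those spans start at 164832873 for Ctsa (plus strand) and at 64370890 for Ctsl (minus strand). Both strands were searched, and CACGTG reads the same on either. CACGTG was in 3 of 8 member windows and in 7.15% of all 32851 windows. The longer TCACGTGA, which contains it, was in 2 member windows (Ctsa and Ctsd) and in 0.974% of all windows. The interferon-stimulated response element core was in 2 member windows, Ctss and Ctso, and in 3.44% of all windows. These matches are letters in a window and say nothing about binding in Teff cells.

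The 10 cathepsins differed widely in level (per kilobase, as deposited FPKM), with Ctsd at the top and Ctsh near the detection limit in both genotypes. In WT cells mean FPKM was 237 ± 25.0 (SD, n = 3, as for all values that follow) for Ctsd, 168 ± 39.2 for Ctsw, 108 ± 7.89 for Ctsz and 81.7 ± 12.0 for Ctsb. Ctsw encodes lymphopain, a cathepsin found chiefly in CD8 T cells and natural killer cells, and Ctsz and Ctsb encode broadly expressed carboxypeptidases, of which cathepsin B also cuts within chains. The next level in WT was 30.9 ± 1.71 FPKM for Ctss, followed by 15.3 ± 2.71 FPKM for Ctsa and 12.8 ± 1.00 FPKM for Ctsc. The lowest were Ctsl at 4.77 ± 1.64 FPKM, Ctso at 1.64 ± 0.406 FPKM and Ctsh at 0.0429 ± 0.0300 FPKM. Neighbours in this WT order whose ranges overlapped were Ctsd with Ctsw, and Ctsa with Ctsc. In Scd-1-/- cells the order of mean FPKM was the same, but Ctsd no longer overlapped Ctsw, and Ctss overlapped Ctsa. The overlap of Ctsd with Ctsw in WT was narrow, with the lowest Ctsd at 213.2 FPKM and the highest Ctsw at 213.5 FPKM. It depended on the gene length used, as described below. Over all 6 libraries, 156 of the 9627 genes tested had a higher mean FPKM than Ctsd, 295 a higher one than Ctsw, 517 than Ctsz and 683 than Ctsb.

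**Figure D1:**
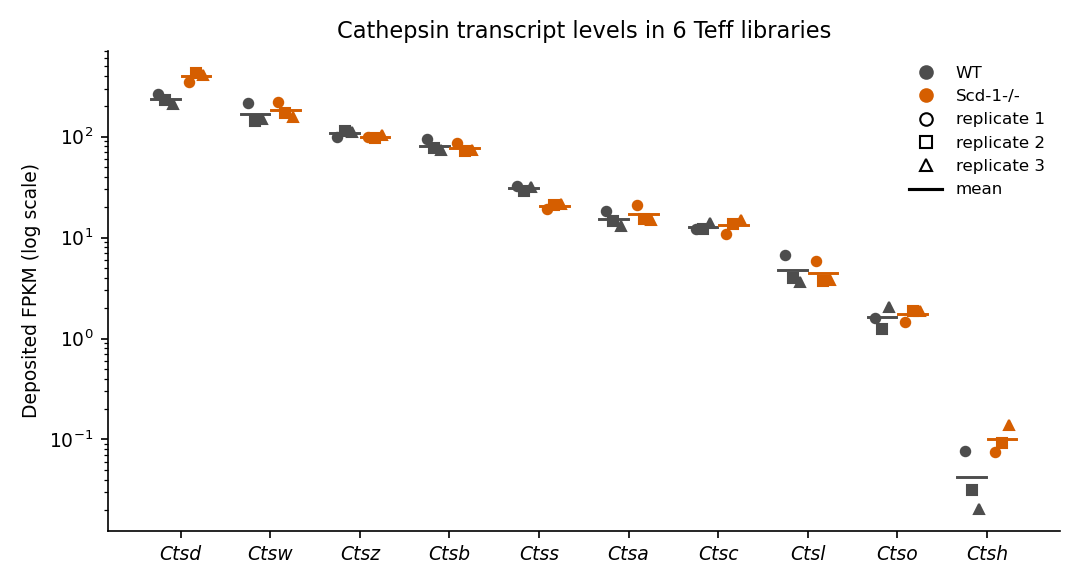
Deposited FPKM of the 10 cathepsins on a log axis, 1 point per library (grey, WT; orange, Scd-1-/-; the symbol gives the replicate number) with the mean of each genotype as a bar. The points of the genotypes are apart for Ctsd (WT 213 to 263 FPKM, Scd-1-/- 351 to 432 FPKM) and Ctss (28.9 to 32.1 FPKM against 19.2 to 21.3 FPKM), and overlap for the other 8 genes.

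The order of levels below Ctsb depended on the gene length used. The length in the deposited FPKM was 9533 bases for Ctsa and 1971 bases for Ctsl, whereas the longest coding transcripts of GENCODE M21 have 3646 and 6168 bases. Per kilobase of the longest coding transcript, WT Ctsa came to 40.1 ± 7.09 on the FPKM scale and overlapped Ctss at 41.0 ± 2.27, and Ctso at 2.74 ± 0.677 had a higher mean than Ctsl at 1.52 ± 0.525, with overlapping ranges. Ctsd, Ctsw, Ctsz and Ctsb kept the first 4 places with either length and in both genotypes. The deposited length of Ctsd was 3873 bases, against 2127 bases for its longest coding transcript. With the longest coding transcripts, WT Ctsd (388 to 479) did not overlap WT Ctsw (141 to 212). Gene length is the same in every library, so it does not enter the comparison of genotypes for a single gene.

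Of the cathepsins, Ctsd was higher and Ctss was lower in every Scd-1-/- library than in any WT library, whereas the other 8 overlapped. Non-overlapping FPKM values were seen in 16.0% of the 9627 genes whose mean FPKM reached 1 (7.67% with Scd-1-/- higher and 8.32% with it lower), against 2 of the 9 cathepsins that reached this minimum. The thresholds of the study were a p under 0.001, taken here as unadjusted, together with a log2 fold change of 1 or more in either direction. They were passed by 0.738% of the genes in edgeR's quasi-likelihood test and by no cathepsin. No cathepsin had a Benjamini-Hochberg adjusted p under 0.05 either (0.114% of genes), and 2 of 9 had an unadjusted p under 0.05 (10.1% of genes). With the replicate number as a block, both of these had an adjusted p under 0.05 (4.70% of genes), 1 higher (2.64% of genes) and 1 lower (2.06% of genes) in Scd-1-/-. DESeq2 without the block called the same 2 cathepsins with an adjusted p under 0.05 (2.76% of genes). The median log2 fold change of the 9 cathepsins was 0.06, with 5 above 0 and 4 below, beside a median of -0.00051 over all genes tested.

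**Figure D2:**
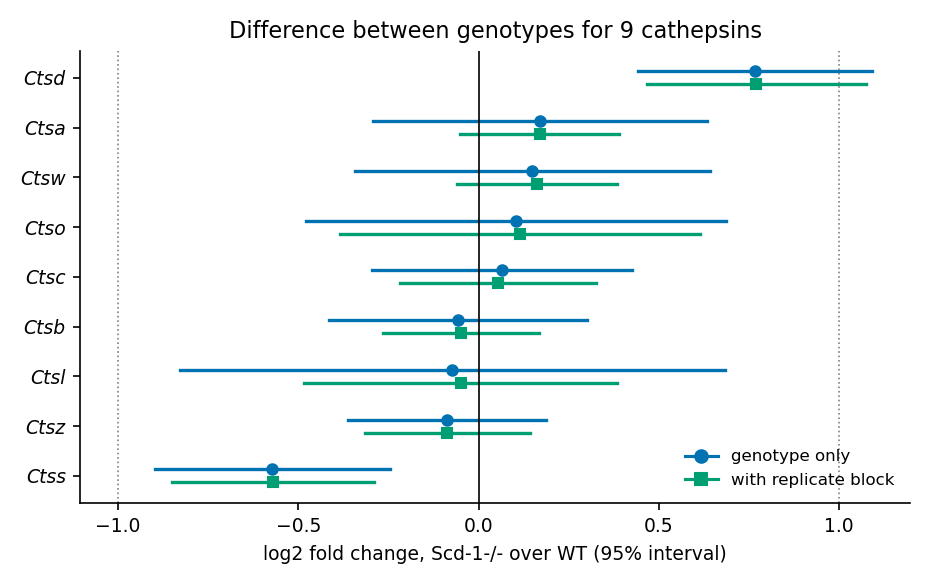
Log2 fold change (Scd-1-/- over WT) of the 9 cathepsins whose mean FPKM reached 1, with 95% intervals from edgeR fitted on genotype alone (blue circles) and with the replicate block (green squares). Dotted lines mark the fold threshold of the study. The intervals of Ctsd (0.44 to 1.09 on genotype alone) and Ctss (-0.90 to -0.25) leave out 0 in both fits, and those of the other 7 genes include it.

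Ctsd (ENSMUSG00000007891, chromosome 7, 142375911 to 142388038, minus strand, GRCm38) encodes cathepsin D, the main aspartic endopeptidase of lysosomes. It had 15446, 12689 and 11747 counts in WT replicates 1 to 3, or 263, 233 and 213 FPKM. In Scd-1-/- replicates 1 to 3 it had 21169, 23611 and 25047 counts, or 351, 432 and 408 FPKM. The lowest Scd-1-/- library thus stood above the highest WT library, and both of these were replicate 1. Mean FPKM was 237 ± 25.0 in WT and 397 ± 41.6 in Scd-1-/- (n = 3 each). The log2 fold change was 0.77 (SE 0.140, 95% interval 0.44 to 1.09), a 1.70-fold higher level. By edgeR the unadjusted p was 0.000668 and the adjusted p 0.0960. With the replicate block the edgeR adjusted p was 0.0221, with the log2 fold change unchanged at 0.77.

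The difference in Ctsd was smallest within replicate number 1. The ratio of Scd-1-/- to WT FPKM was 1.34 for replicate 1, 1.85 for replicate 2 and 1.91 for replicate 3, so the direction was shared by 3 of 3 numbers. In replicates 2 and 3 alone the log2 fold change was 0.95, with an edgeR adjusted p of 0.000912. Without WT replicate 1 the edgeR adjusted p was 0.0360 and without Scd-1-/- replicate 1 it was 0.0366, while it lay at 0.379 to 0.489 without any one of the other 4 libraries. The summed level of the 13 myeloid markers, most of it Cd68, a lysosomal glycoprotein, was 8.16 to 17.4 FPKM in WT and 10.2 to 29.1 FPKM in Scd-1-/- libraries. By replicate 1 to 3, Cd68 was at 16.7, 7.79 and 8.30 FPKM in WT and 27.2, 9.57 and 8.42 FPKM in Scd-1-/- libraries. Cd14 was at 0.461, 0.227 and 0.179 FPKM in WT and 1.14, 1.89 and 1.604 FPKM in Scd-1-/- libraries, past the thresholds of the study (log2 fold change 2.41, SE 0.524, edgeR adjusted p 0.0956). Itgam had a higher mean in Scd-1-/- but overlapped, as given above. Mpeg1 went the other way without overlap, at 4, 2 and 3 counts in WT and 0, 0 and 1 count in Scd-1-/- libraries. Of the 13 markers, 7 had at most 3 counts in every library, among them Adgre1, C1qa, C1qc, Cybb and Spi1 at 0. The part of myeloid RNA in the Ctsd difference was not tested, and in bulk RNA a change in the share of cells of a type cannot be told apart from a change in RNA per cell. A second annotated gene, Gm49369, overlaps Ctsd on the same strand, and 35.0% of the 100-base windows of the longest coding Ctsd transcript also occur in its transcripts. Gm49369 was not analysed here, and the counts of Ctsd do not tell how reads of the shared stretch were assigned.

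Ctss (ENSMUSG00000038642, chromosome 3, 95526786 to 95556403, plus strand) encodes cathepsin S, which stays active at neutral pH and cuts the invariant chain (Cd74) of MHC class II in antigen-presenting cells. It had 876, 730 and 808 counts in WT replicates 1 to 3, or 32.1, 28.9 and 31.6 FPKM. The Scd-1-/- replicates 1 to 3 had 538, 528 and 608 counts, or 19.2, 20.8 and 21.3 FPKM. All 3 Scd-1-/- libraries lay below all 3 WT libraries, and the libraries of a genotype lay close together. Mean FPKM was 30.9 ± 1.71 in WT and 20.5 ± 1.10 in Scd-1-/- (n = 3 each). The log2 fold change was -0.57 (SE 0.140, 95% interval -0.90 to -0.25), a level 1.49-fold higher in WT. By edgeR the unadjusted p was 0.00391 and the adjusted p 0.206. With the replicate block the edgeR adjusted p was 0.0414.

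The ratio of Scd-1-/- to WT FPKM of Ctss was 0.598, 0.720 and 0.675 within replicate numbers 1, 2 and 3. Its difference was therefore largest within number 1, where that of Ctsd was smallest. Leaving out any one library kept the log2 fold change of Ctss between -0.62 and -0.53, with an edgeR adjusted p of 0.165 to 0.633. The summed level of the B cell markers was 9.45 to 10.9 FPKM in WT and 3.15 to 8.06 FPKM in Scd-1-/- libraries, nearly all of it Cd79b, with Ms4a1 and Pax5 at 0. The dendritic cell markers summed to at most 0.0955 FPKM in WT against 0.101 FPKM in Scd-1-/- libraries. The part of B cell RNA in the Ctss difference was not tested. The counts of Ctsd were 17.6, 17.4 and 14.5 times those of Ctss in the WT libraries and 39.3, 44.7 and 41.2 times in the Scd-1-/- libraries.

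**Figure D3:**
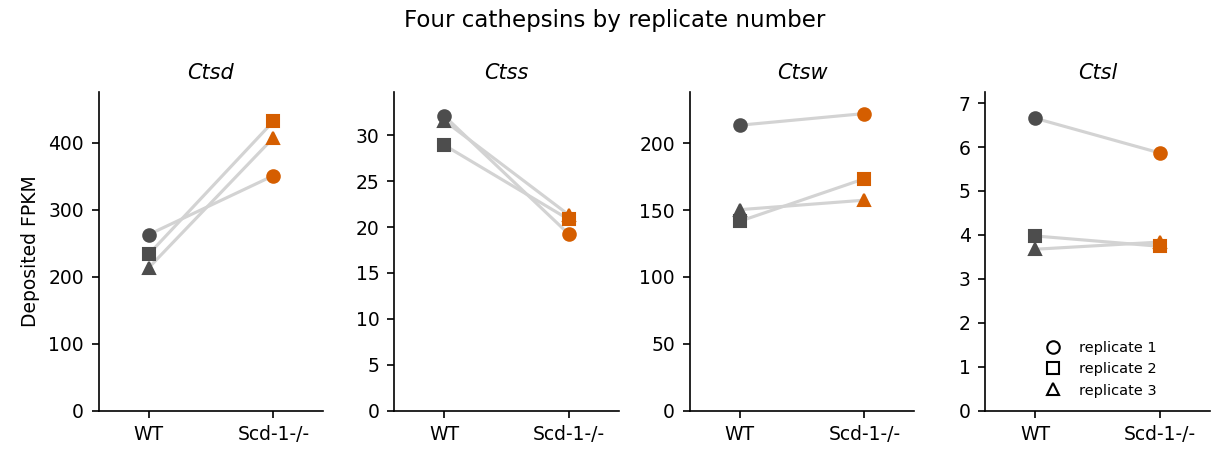
Deposited FPKM of Ctsd, Ctss, Ctsw and Ctsl in WT (grey) and Scd-1-/- (orange) libraries, with a line joining libraries of the same replicate number and each axis starting at 0. All 3 lines rise for Ctsd and fall for Ctss, whereas for Ctsw and Ctsl replicate 1 is the highest library of both genotypes (213 and 222 FPKM for Ctsw).

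Ctsc, Ctsh and Ctsl, which are known to act on granzymes or perforin, had overlapping levels in the genotypes. Ctsc encodes dipeptidyl peptidase I, which removes the amino-terminal dipeptide that keeps granzymes inactive. Its FPKM was 12.3, 12.3 and 14.0 in WT against 10.9, 13.7 and 15.0 in Scd-1-/- replicates 1 to 3, so the WT range lay within the Scd-1-/- range. The log2 fold change of Ctsc was 0.06 (SE 0.155, 95% interval -0.30 to 0.43, edgeR adjusted p 0.933). Ctsh encodes an aminopeptidase that can also convert pro-granzyme B. It had 8, 3 and 2 counts in WT and 8, 9 and 15 counts in Scd-1-/- replicates 1 to 3, and at this depth a difference was not detectable (log2 fold change 1.24, SE 0.759, edgeR adjusted p 0.709 when all 17192 genes with any count were fitted). Ctsl encodes an endopeptidase that takes part in the maturation of perforin, and it had 199, 110 and 103 counts in WT and 180, 104 and 120 counts in Scd-1-/- libraries. The 95% interval of its log2 fold change was the widest of the 9 members tested, from -0.83 to 0.68 around -0.07.

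Ctsw (ENSMUSG00000024910) was the second most abundant cathepsin, at 213, 142 and 150 FPKM in WT against 222, 173 and 157 FPKM in Scd-1-/- replicates 1 to 3. Within each replicate number Scd-1-/- was the higher library, by 1.04, 1.22 and 1.05 times, but the ranges of the genotypes overlapped. The log2 fold change was 0.15 (SE 0.212, 95% interval -0.34 to 0.64, edgeR adjusted p 0.886), and with the replicate block the interval narrowed to -0.06 to 0.38. The larger contrast in Ctsw was between replicate numbers, since replicate 1 had 1.46 times the mean FPKM of replicates 2 and 3 in WT and 1.34 times in Scd-1-/-.

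Ctsa encodes cathepsin A, which also protects neuraminidase 1 and beta-galactosidase in the lysosome. Its log2 fold change was 0.17 (95% interval -0.29 to 0.63), with 18.4, 14.5 and 13.2 FPKM in WT against 20.9, 15.1 and 15.0 FPKM in Scd-1-/- replicates 1 to 3. Its 2 partners were as close, with a log2 fold change of -0.10 for Neu1 (SE 0.193) and -0.01 for Glb1 (SE 0.133). Ctsb had a log2 fold change of -0.06 (95% interval -0.42 to 0.30) and Ctsz of -0.09 (-0.36 to 0.19), the narrowest interval of the 9 members tested. Ctso, whose function is little known, had a log2 fold change of 0.10 (-0.48 to 0.69). For the 7 members other than Ctsd and Ctss the edgeR adjusted p lay between 0.859 and 0.966, and none passed with the replicate block. The intervals of these 7 reach no further than -0.83 and 0.69, so log2 fold changes of 1 in size lay outside each.

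Replicate 1 had the highest FPKM of both genotypes for 4 of the 9 cathepsins tested, Ctsa, Ctsb, Ctsl and Ctsw, and for 28.3% of all 9627 genes. For Ctsl it had 1.74 times the mean of replicates 2 and 3 in WT and 1.55 times in Scd-1-/-. The same ratios were 1.33 and 1.39 for Ctsa, and 1.27 and 1.17 for Ctsb. Ctsd and Ctss did not share this pattern, since for both replicate 1 was the highest WT library and the lowest Scd-1-/- library. Replicate 1 had 1.18 (WT) and 0.836 (Scd-1-/-) times the mean of replicates 2 and 3 for Ctsd, and 1.06 and 0.912 times for Ctss. Ctsc, Ctso and Ctsz did not share the pattern either. Several members share annotated bases with neighbours, namely Ctsb with Fdft1 on the other strand (14.5% of its 100-base transcript windows), Ctsa with Neurl2 and Pltp (11.6%) and Ctsl with Gm47123 and Gm49230 (25.4%). The strand setting of the counting was not given in the sources used here, so reads of such stretches cannot be assigned with certainty. Pltp had 137, 90 and 70 counts in WT and 67, 34 and 20 counts in Scd-1-/- libraries, far fewer than Ctsa at 1784 to 3108 counts.

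The summed FPKM of the 10 cathepsins was 742, 626 and 612 in WT and 816, 830 and 800 in Scd-1-/- replicates 1 to 3. All Scd-1-/- libraries stood above all WT libraries, with means of 660 ± 71.0 and 815 ± 14.9 (n = 3 each), a ratio of 1.24. The two-sided exact permutation test gave p = 0.1, the smallest value that 3 libraries against 3 allow. Without Ctsd the sum was 424 ± 47.9 FPKM in WT against 419 ± 40.2 FPKM in Scd-1-/- (exact permutation p = 0.6). With the deposited gene lengths, Ctsd made up 35.5%, 37.3% and 34.8% of the summed cathepsin FPKM in WT and 43.0%, 52.1% and 50.9% in Scd-1-/- libraries. As a share of all counts, the 10 genes took 0.197% ± 0.0212 in WT and 0.258% ± 0.00777 in Scd-1-/- (n = 3 each).

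**Figure D4:**
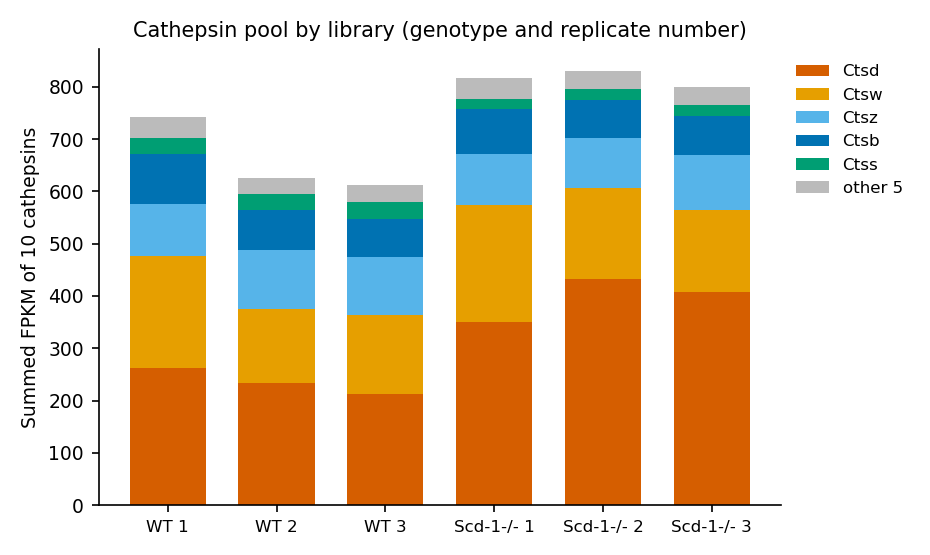
Summed FPKM of the 10 cathepsins in each library, as stacked bars from 0 coloured by gene, with Ctsa, Ctsc, Ctsl, Ctso and Ctsh pooled as the other 5. The Scd-1-/- bars (800 to 830 FPKM) are taller than the WT bars (612 to 742 FPKM), and the Ctsd segment (213 to 263 FPKM in WT, 351 to 432 FPKM in Scd-1-/-) grows most.

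The remaining cathepsin genes of the mouse were scarcely expressed. Of 13, 10 had 0 counts in every library, among them Ctsk, the collagen-degrading cathepsin of osteoclasts, and 2 reached the FPKM minimum. These were Ctse, an aspartic protease, with a log2 fold change of 0.02 (SE 0.233), and Ctsf, a cysteine protease, with 0.47 (SE 0.509), and the genotypes overlapped for both. Among the inhibitors, 4 of 9 were tested and none passed the thresholds (0.738% of all genes) or had an adjusted p under 0.05 with edgeR, on genotype alone (0.114%) or with the replicate block (4.70%). Cst7 encodes cystatin F, which reaches granules and inhibits cathepsin C, and its mean FPKM lay between those of Ctsw and Ctsd in both genotypes. It had 203 ± 13.1 FPKM in WT against 210 ± 5.56 FPKM in Scd-1-/- (log2 fold change 0.08, SE 0.121). The range of Cst7 overlapped that of Ctsw in both genotypes and that of Ctsd in WT. Cst3 encodes the secreted cystatin C, and all Scd-1-/- libraries (81.7, 105 and 93.2 FPKM) stood above the WT libraries (80.0, 66.2 and 72.7 FPKM), with a log2 fold change of 0.38 and an edgeR adjusted p of 0.441. Cstb, the cytosolic stefin B, was also higher without overlap (log2 fold change 0.20, SE 0.124, edgeR adjusted p 0.649). Scd-1-/- levels were thus higher without overlap for 2 of the 4 inhibitors tested and lower for none. Among all genes tested, 7.67% were higher and 8.32% lower without overlap. Of the other 5 listed inhibitors, Csta1, Stfa1, Stfa2 and Stfa3 had 0 counts in every library, and Cst6, under the FPKM minimum, had a log2 fold change of -0.26 (SE 0.456). Serpina3g, a serpin that inhibits cathepsin B, had 5.90 FPKM in Scd-1-/- replicate 1 and between 19.6 and 27.1 FPKM in the other 5 libraries.

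Of the 8 tested genes listed for delivery of hydrolases to the lysosome together with legumain and prosaposin, 0 were past either call on genotype alone, beside 0.738% and 0.114% of all genes tested. Psap encodes prosaposin, the precursor of the saposins that present lipids to lysosomal hydrolases, and it is itself a substrate of cathepsin D. It had 160, 148 and 130 FPKM in WT against 126, 86.1 and 74.0 FPKM in Scd-1-/- replicates 1 to 3. All Scd-1-/- libraries lay below all WT libraries, opposite in direction to Ctsd (log2 fold change -0.59, SE 0.211, edgeR adjusted p 0.396, and 0.0261 with the replicate block). M6pr, the cation-dependent mannose 6-phosphate receptor, was 40.2 ± 4.002 FPKM in WT against 51.4 ± 3.36 FPKM in Scd-1-/- without overlap (log2 fold change 0.38, edgeR adjusted p 0.387). Of the 8 genes tested, 1 was thus higher and 1 lower without overlap, against 7.67% and 8.32% of all genes tested. Lgmn, the legumain that trims several cathepsins to their mature chains, was near 1 FPKM in both genotypes, with a log2 fold change of -0.0017 (SE 0.291).

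The other lysosomal hydrolases lay on both sides of 0. Of 34 tested, none passed either call on genotype alone (0.738% of all genes past the thresholds and 0.114% by adjusted p), 12 had a log2 fold change above 0 and 22 below, and the median was -0.06. With the replicate block 1 was higher and 1 lower with an edgeR adjusted p under 0.05, beside 2.64% and 2.06% of all genes tested. Arsb, arylsulfatase B, was the higher one, at 42.4, 22.2 and 26.4 FPKM in WT against 72.5, 53.2 and 48.6 FPKM in Scd-1-/- (log2 fold change 0.96, SE 0.276, block adjusted p 0.00685 in edgeR). Gm2a, the GM2 activator that lifts gangliosides for degradation, was the lower one, at 159, 152 and 151 FPKM in WT against 127, 65.4 and 61.4 FPKM in Scd-1-/- (log2 fold change -0.84, SE 0.275, block adjusted p 0.0325 in edgeR). FPKM values of the genotypes were apart for 8 of the 34 hydrolases (16.0% of all genes tested), of which Arsb was the one higher in Scd-1-/- (7.67% of genes) and 7 were lower (8.32% of genes).

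Among lysosomal membrane proteins and subunits of the proton pump, 0 of 25 passed either call on genotype alone (0.738% and 0.114% of all genes) and 0 had an adjusted p under 0.05 with the block (4.70% of all genes). Of these, 21 had a log2 fold change above 0 and 4 below, with a median of 0.14. Among the 25, the largest log2 fold change was that of Cd63, at 0.77 (SE 0.438), on a level under 4 FPKM in every library, and Atp6v0a1, a pump subunit under the FPKM minimum, had 0.86 (SE 0.353). Of 10 tested regulators of lysosomal genes, the MiT/TFE factors and the mTOR branch that controls them, 0 passed either call (0.738% and 0.114% of all genes). The largest log2 fold changes among them were -0.36 for Mtor (SE 0.193) and -0.29 for Rptor (SE 0.158). Tfeb had 2.39 ± 0.427 FPKM in WT against 2.27 ± 0.456 FPKM in Scd-1-/-, and Tfe3 had 1.89 ± 0.134 and 1.72 ± 0.139 FPKM.

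The proteins that cathepsins are known to process in lymphocytes were listed with earlier results of the same libraries known, and their size and direction of change are no independent evidence. Of 6 tested, 3 were higher (Gzma, Gzmc and Prf1) and 1 was lower (Cd74) past the thresholds, against 0.499% and 0.239% of all genes tested. With the replicate block 5 were higher and 1 lower with an edgeR adjusted p under 0.05 (2.64% and 2.06% of all genes). Gzmk was among them, at 12.3, 2.55 and 1.51 FPKM in WT against 28.4, 7.33 and 6.52 FPKM in Scd-1-/- replicates 1 to 3 (log2 fold change 1.37 with SE 0.866 and an edgeR adjusted p of 0.661, and 1.59 with 0.00890 under the block). Its levels overlapped between genotypes, and Scd-1-/- was the higher library within each number. Gzmm, under the FPKM minimum, had a log2 fold change of -0.86 (SE 0.476). Beside the level of Ctsc, which overlapped between genotypes, its substrate Gzmb had a log2 fold change of 0.89 (SE 0.168, edgeR adjusted p 0.101, and 0.0208 with the block). Beside Ctsl, Prf1 had a log2 fold change of 2.31 (SE 0.248, edgeR adjusted p 0.0259). Cd74, the substrate of cathepsin S, had 2.70, 4.30 and 5.72 FPKM in WT against 0.994, 1.31 and 1.29 FPKM in Scd-1-/- replicates 1 to 3, lower like Ctss (log2 fold change -1.79, SE 0.328).

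**Figure D5:**
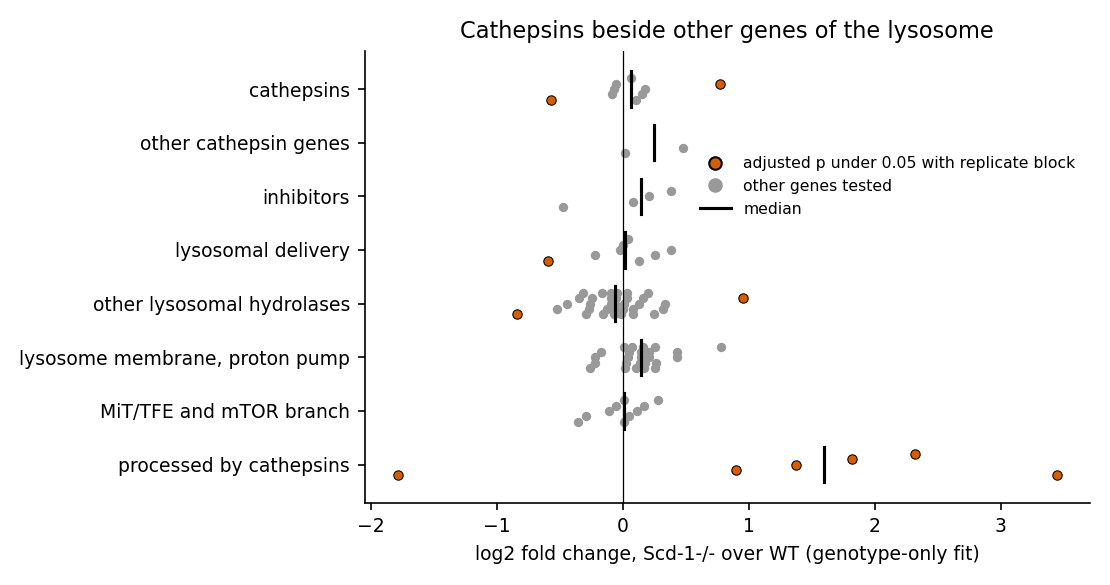
Log2 fold change (Scd-1-/- over WT, edgeR on genotype alone) of every tested gene in the cathepsin list and 7 lists of related genes, 1 point per gene with the median of each list as a black bar. Orange points have an adjusted p under 0.05 with the replicate block. Ctsd at 0.77 and Ctss at -0.57 are the outer points of the cathepsins, whose median is 0.06.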

How the data were processed

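Per the labels and the study's methods, reads were aligned with HISAT2 to GRCm38 and counted per gene with StringTie (1.3.0 in the submitters' processing notes). The authors deposited raw counts per gene and, beside each count, an FPKM value, which holds no TMM factor. The labels name Trizol, poly(A) RNA and a Vazyme kit, the methods a column and a stranded total RNA kit, and the counting's strand setting is not given in the sources used here. Groups and replicate numbers came from the sample titles.

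Counts were fitted with edgeR 4.0.16 (R 4.3.3) by glmQLFit and glmQLFTest with TMM scaling, on genotype alone, for the 9627 genes whose mean FPKM over the 6 libraries reached 1, with Benjamini-Hochberg adjustment over all of them. A standard error is the size of the log2 fold change divided by the square root of F. For Ctsh and listed genes under this minimum, all 17192 genes with any count were fitted. The scripts were tested on simulated data. Alternatives used DESeq2 1.42.0, limma 3.58.1 on log2(FPKM + 1) and log2(FPKM + 0.1), other FPKM minimums and scaling, the replicate block, replicates 2 and 3 alone, and leaving out each library. Deviations of same-numbered libraries from their group means correlated at r = 0.595, 0.306 and 0.470 across 9627 genes, which are not independent. For the block the numbers were taken to pair the libraries. Of the crossed pairs, WT 3 with Scd-1-/- 2 had r = 0.380, above the 0.306 of the number 2 pair, WT 2 with Scd-1-/- 3 had 0.180, and the 4 crossed with number 1 lay between -0.560 and -0.316. Deviations from a group mean cancel within a genotype, so a shift shared by number 1 makes the other numbers correlate positively in any pairing. These values thus set number 1 apart but cannot tell whether 2 pairs with 2 and 3 with 3. What a number stands for is not stated.

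Positions are those of GENCODE M21. The members and all lists were chosen with earlier results of these data known. Named were all 10 members, direct partners, inhibitors and substrates, listed genes called by either rule or under the block, and at most the 4 largest changes of each other list. Tfeb, Tfe3, Ctsk, Gm49369, Fdft1, Neurl2, Pltp, Gm47123, Gm49230 and Mcpt8 were named outside this rule, after values were seen.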

Additional observations from a re-analysis of the deposited data

How the results depend on the processing

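Of 125 values of single cathepsins under other settings, 108 kept their direction and side of the threshold, 7 newly passed it (5 for Ctsd, 2 for Ctss) and 10 changed sign, all of the latter among genes whose intervals included 0. Cathepsins past the thresholds stayed at 0 in all 14 alternatives. Those with an adjusted p under 0.05 went from 0 to 2 with DESeq2, to 2 with the replicate block and to 1 (Ctsd) with replicates 2 and 3 alone, and lay between 0 and 1 when a library was left out (1, Ctsd, where that library was replicate 1 of either genotype). The replicate block changed no other cathepsin call. All genes past the thresholds numbered 71, and 148 with no FPKM minimum, 42 with a minimum of 5, 161 with DESeq2, 184 with the block, 369 with replicates 2 and 3 alone and 25 to 163 when a library was left out. Genes with an adjusted p under 0.05 numbered 11, and 84, 17 (limma on log2(FPKM + 1)), 266 (DESeq2), 452 (block), 1213 (replicates 2 and 3) and 2 to 182 (a library left out), the 84 being without a minimum. When a library was left out, the log2 fold changes of 6 cathepsins crossed 0, with ranges of -0.010 to 0.34 for Ctsa, -0.15 to 0.087 for Ctsb, -0.041 to 0.18 for Ctsc, -0.32 to 0.27 for Ctsl, -0.055 to 0.28 for Ctso and -0.011 to 0.38 for Ctsw. With replicates 2 and 3 alone Ctsb came to 0.0034 and Ctsl to 0.022. The median over cathepsins lay between -0.048 and 0.10 when a library was left out. The summed level ratio of 1.24 became 1.33 as TMM-scaled CPM, 0.988 without Ctsd, 1.24 with the replicate block and 1.19 to 1.32 when a library was left out. The cause of these shifts was not tested. Depth limits Ctsh, which had at most 15 counts.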

Other observations

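Ctsg, the serine protease cathepsin G, which despite its name belongs with the granzymes on chromosome 14 and not with the lysosomal cathepsins, had 0 counts in the 3 WT libraries and in Scd-1-/- replicate 1, and 23 counts in each of Scd-1-/- replicates 2 and 3. The mast cell protease gene Mcpt8 of the same cluster had 5, 9 and 3 counts in WT and 8, 110 and 125 counts in Scd-1-/- replicates 1 to 3. The granzyme gene Gzmc, also of this cluster, had 790, 875 and 881 counts in WT and 2895, 11749 and 13797 counts in Scd-1-/- replicates 1 to 3. The mast cell marker Cpa3 had 25, 4 and 18 counts in WT and 22, 83 and 66 counts in Scd-1-/- replicates 1 to 3, and the mast cell marker Ms4a2 had 0 counts in all 6 libraries. For Ctsg, Mcpt8, Gzmc and Cpa3, Scd-1-/- replicate 1 was the lowest of its genotype. The part of mast cell RNA in these counts was not tested. The values of Mcpt8, Cpa3 and Ctsg were chosen for mention after they were seen.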
